A study of Macaca fascicularis with 16 samples.

Results

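HAND1, HAND2, GATA2, GATA3, GATA4, GATA5 and GATA6 were followed along the aorta of normal young cynomolgus monkeys (Macaca fascicularis), in RNA sequencing counts of 16 libraries. These 7 genes, taken by their symbols, are 7 of the 32846 rows of the count tables, and each of them had a row. The libraries came from the ascending, descending, suprarenal and infrarenal aorta, 4 libraries from each, and every library is labelled as baseline. The labels tie no library to an animal, so p-values measure only the spread between these libraries. As the samples were pieces of whole aorta, fewer cells of a type and less RNA per cell cannot be told apart.

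HAND1 and HAND2 are basic helix-loop-helix transcription factors that bind DNA with partner E proteins and are needed for the ventricles, the outflow tract and the great arteries that leave the heart. GATA factors are zinc finger proteins that bind the sequence GATA. GATA4, GATA5 and GATA6 act in heart, gut and mesothelial tissues, GATA6 is also a factor of vascular smooth muscle, and GATA2 and GATA3 are best known from blood cells, endothelium, T lymphocytes and sympathetic neurons. The ascending aorta lies next to the heart, and its wall draws on neural crest and on the second heart field.

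Total counts ran from 15547002 to 16509749 in ascending, 15953945 to 17750133 in descending, 14649689 to 21407514 in suprarenal and 14402824 to 17630057 in infrarenal libraries. Levels are given in CPM, counts scaled to a common library size after scaling with trimmed-mean (TMM) factors, and differences are log2 differences fitted with edgeR's quasi-likelihood test, called at an adjusted p under 0.05 over all 15926 genes tested. Smooth muscle markers were present in every library, with 10 markers summing to between 15186 and 60946 CPM. Libraries stood apart in their cell type markers. Ascending replicate 1 held high levels of the heart muscle genes MYL2 and TNNI3, and ascending replicate 4 held mesothelial genes. Ascending replicate 4, suprarenal replicate 3 and infrarenal replicate 3 held the highest endothelial marker sums. Infrarenal replicate 1 had a TMM factor of 0.736.

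HAND1, HAND2, GATA4 and GATA5 were higher in the ascending aorta than in the mean of the other 3 regions, while GATA6, GATA2 and GATA3 did not pass the test. These 4 of 7 genes rose in a comparison in which 0.86% of all genes tested were higher in the ascending aorta. In the test of any difference among the 4 regions the same 4 genes were called, against 2.02% of all genes. For HAND1, HAND2 and GATA5 all 4 ascending libraries lay above the other 12, which was so for 0.446% of all genes tested. HAND1 and GATA4 passed the filter on low counts, at a cutoff of 0.608 CPM, through the ascending libraries, with 1 suprarenal library each above it elsewhere. Their calls are therefore read with their counts beside them. The 7 genes were also chosen with earlier results of these data known. Shares over all genes, here and below, are given for scale and not as a test.

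**Figure D1:**
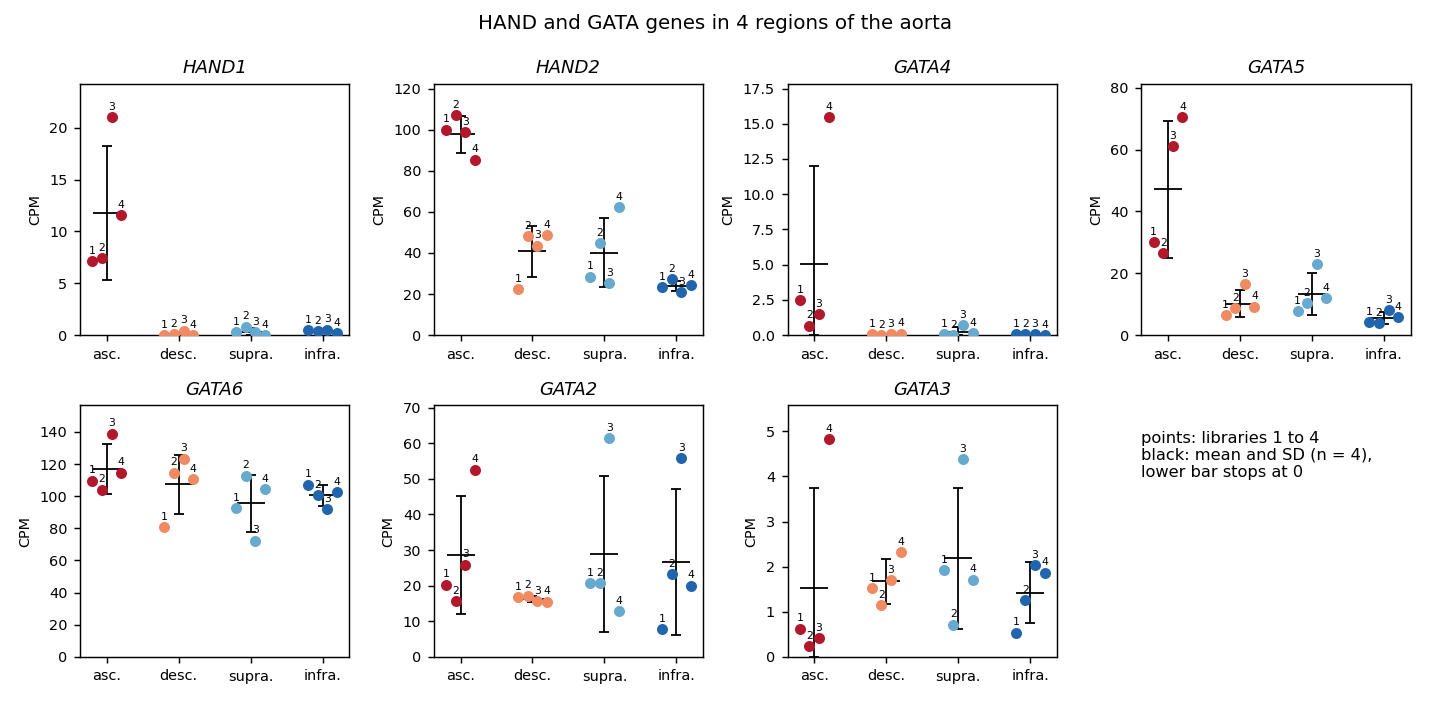
CPM of each gene in each library (vertical axes, linear from 0) by region (horizontal axes, from ascending to infrarenal). Points are libraries with their replicate numbers, and black marks are the mean and SD of 4 libraries. HAND1, HAND2 and GATA5 have all 4 ascending points above every other point, GATA4 is highest in ascending replicate 4 at 15.5 CPM, and the GATA6 means lie between 95.5 CPM (suprarenal) and 117 CPM (ascending).

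HAND1 (GeneID 102132552) was read almost only in the ascending aorta. Its levels were 7.14, 7.41, 21.0 and 11.6 CPM in ascending replicates 1 to 4. In descending libraries it had 0, 0.0602, 0.425 and 0 CPM. Suprarenal libraries had 0.309, 0.813, 0.254 and 0 CPM, and infrarenal libraries had 0.463, 0.361, 0.524 and 0.17 CPM. The lowest ascending library thus lay well above the highest of the other 12. Summed over 4 libraries there were 773 counts in the ascending region, 8 in the descending, 26 in the suprarenal and 23 in the infrarenal region. The ratio of normalized sums, ascending over the other 3 regions, was 41.5 (exact 95% interval 31.7 to 55.3, counting error only). The fitted log2 difference was 5.50 (SE 0.58, adjusted p = 0.000165).

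Each single region gave the same direction for HAND1. It rose by 6.54 on the log2 scale in the ascending over the descending aorta (SE 0.98, adjusted p = 0.01), where the ratio of normalized sums was 99.96 (50.5 to 232). Over the suprarenal aorta it rose by 5.03 (SE 0.88, adjusted p = 0.0228) and over the infrarenal aorta by 4.95 (SE 0.88, adjusted p = 0.00429). The descending call was lost without ascending replicate 3 or descending replicate 2 (adjusted p up to 0.0685), and without ascending replicates 1 and 4 together (adjusted p = 0.0527). The suprarenal call was lost without ascending replicate 3, suprarenal replicate 1 or suprarenal replicate 3 (adjusted p up to 0.104), and without ascending replicates 1 and 4 together (adjusted p = 0.0823). A count of 0, as in descending replicates 1 and 4 and suprarenal replicate 4, allows up to 3 counts, so HAND1 was not detectable there at this depth. Between the 3 lower regions its values did not differ beyond their spread, with log2 differences of -1.51 (95% interval -3.61 to 0.59) for descending minus suprarenal, -1.59 (-3.71 to 0.53) for descending minus infrarenal and -0.08 (-1.96 to 1.80) for suprarenal minus infrarenal.

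HAND2 (GeneID 102134948) was read in all 4 regions and was highest in the ascending aorta. Ascending libraries had 100.1, 107, 98.9 and 85.5 CPM, the closest set of values of any region relative to its mean (97.9 ± 9.0 CPM, SD, n = 4). Descending libraries had 22.5, 48.2, 43.6 and 48.8 CPM, suprarenal libraries 28.5, 44.7, 25.4 and 62.2 CPM, and infrarenal libraries 23.4, 27.3, 21.1 and 24.2 CPM. The ascending libraries stood clear of all others, the infrarenal ones were narrow and low, and the descending and suprarenal ranges overlapped each other and reached the infrarenal range. The ascending level was 2.88-fold that of the other 3 regions in the fit (log2 difference 1.52, SE 0.20, adjusted p = 0.000897). It was called in all 23 other settings for that comparison, with log2 differences from 1.46 to 1.62.

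By region, HAND2 rose by 2.03 on the log2 scale in the ascending over the infrarenal aorta (SE 0.28, adjusted p = 0.000626). The log2 differences over the descending aorta (1.26, 95% interval 0.69 to 1.84, adjusted p = 0.0921) and over the suprarenal aorta (1.28, 0.71 to 1.86, adjusted p = 0.0747) did not pass over all genes, although in both all 4 ascending libraries lay above all 4 others. DESeq2 called both (adjusted p = 0.00363 and 0.00245). Descending and suprarenal means were 40.8 ± 12.4 and 40.2 ± 16.9 CPM (SD, n = 4), a log2 difference of 0.02 (-0.55 to 0.59). The infrarenal mean was 24.0 ± 2.57 CPM (SD, n = 4). The difference of descending minus infrarenal was 0.76 (0.19 to 1.34, adjusted p = 0.22), and that of suprarenal minus infrarenal 0.74 (0.17 to 1.32, adjusted p = 0.621), so the middle regions were not separated from the infrarenal one in the test over all genes.

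GATA4 (GeneID 102132718) was low everywhere and was read mainly in the ascending aorta. Ascending libraries had 2.51, 0.679, 1.51 and 15.5 CPM, which are 40, 11, 25 and 256 counts. Outside the ascending region, counts were 1, 0, 1 and 2 in descending libraries, 1, 0, 11 and 2 in suprarenal libraries and 1, 1, 1 and 0 in infrarenal libraries. Suprarenal replicate 3, with 0.698 CPM, was the single library that reached into the ascending range, just above ascending replicate 2. The ratio of normalized sums was 85.9 for ascending over descending (exact 95% interval 33.2 to 317) and 106 for ascending over infrarenal (36.0 to 517). For ascending over suprarenal, the region whose values overlapped, it was 25.4 (14.9 to 46.9). These intervals carry counting error only and not the spread between libraries. Fitted against the other 3 regions GATA4 rose by 5.75 (SE 0.77, adjusted p = 0.00101).

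Ascending replicate 4 held 256 of the 332 ascending counts of GATA4. Without that library the log2 difference was 4.07 (adjusted p = 0.00789), and without ascending replicates 1 and 4 together it was 3.56 (adjusted p = 0.092), which did not pass. GATA4 rose in the ascending over the infrarenal aorta (log2 difference 6.49, SE 1.28, adjusted p = 0.00903), a call also lost without ascending replicates 1 and 4 (adjusted p = 0.0909). Ascending minus descending gave 6.25 (SE 1.24, adjusted p = 0.076) and ascending minus suprarenal 4.53 (SE 1.09, adjusted p = 0.135), neither past the test.

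GATA5 (GeneID 102145505), which in mouse is expressed in endocardium and takes part in forming the outflow valve, showed a high and variable level in the ascending aorta. Ascending libraries had 30.2, 26.5, 61.3 and 70.6 CPM (47.1 ± 22.1 CPM, SD, n = 4). The other regions had 6.41, 8.73, 16.4 and 9.26 CPM in descending, 7.86, 10.4, 23.0 and 11.9 CPM in suprarenal and 4.32, 3.97, 8.19 and 5.88 CPM in infrarenal libraries. Although ascending values spread 2.67-fold, the lowest still lay above the highest of the other 12, suprarenal replicate 3. GATA5 was 5.17-fold higher in the ascending aorta than in the other 3 regions (log2 difference 2.37, SE 0.30, adjusted p = 0.000538), and was called in all 23 other settings, with log2 differences from 2.11 to 2.57.

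Against single regions GATA5 rose by 3.07 over the infrarenal aorta (SE 0.43, adjusted p = 0.000808). Over the descending aorta the log2 difference was 2.21 (95% interval 1.33 to 3.09, adjusted p = 0.0616) and over the suprarenal aorta 1.83 (0.96 to 2.70, adjusted p = 0.0996), neither past the test. Of the 23 other settings, 8 called the descending and 4 the suprarenal difference. DESeq2 called both (adjusted p = 6.98e-05 and 0.00223). Means were 10.2 ± 4.30 CPM in the descending, 13.3 ± 6.71 in the suprarenal and 5.59 ± 1.92 in the infrarenal region (SD, n = 4). Descending and suprarenal libraries overlapped (log2 difference -0.38, -1.23 to 0.47). The difference of suprarenal minus infrarenal was 1.25 (0.37 to 2.12, adjusted p = 0.473) and that of descending minus infrarenal 0.86 (-0.0039 to 1.73, adjusted p = 0.364), and in both pairs the ranges overlapped.

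GATA6 (GeneID 102146495), the GATA factor of vascular smooth muscle, had nearly the same level along the whole vessel. Ascending libraries had 109.6, 104, 139 and 115 CPM, descending libraries 80.7, 115, 123 and 110.5 CPM, suprarenal libraries 92.5, 113, 72.3 and 104 CPM, and infrarenal libraries 107, 101, 91.7 and 103 CPM. All 4 regions overlapped. Ascending minus the mean of the other 3 regions was 0.21 on the log2 scale, with a 95% interval of -0.07 to 0.49 (adjusted p = 0.723), so differences above 0.49 lie outside that interval. The 6 pairs of regions had log2 differences from -0.07 to 0.29 and none was called.

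GATA2 (GeneID 101865311) differed more between libraries of a region than between regions. Ascending libraries had 20.3, 15.7, 25.9 and 52.6 CPM, and descending libraries a narrow 16.7, 17.2, 15.6 and 15.5 CPM. Suprarenal libraries had 20.6, 20.8, 61.4 and 12.9 CPM, and infrarenal libraries 7.79, 23.2, 55.9 and 19.97 CPM. In each region but the descending, a single library was far above the rest. Ascending minus the other 3 regions was 0.30 (95% interval -0.62 to 1.22, adjusted p = 0.964). GATA3 (GeneID 102135253) was low, with 0.627, 0.247, 0.424 and 4.83 CPM in ascending, 1.53, 1.14, 1.70 and 2.33 CPM in descending, 1.92, 0.717, 4.38 and 1.71 CPM in suprarenal and 0.540, 1.26, 2.03 and 1.87 CPM in infrarenal libraries. Ascending minus the other 3 regions was -0.18 for GATA3 (-1.53 to 1.18, adjusted p = 0.995). Without ascending replicate 4 it was -1.99 (adjusted p = 0.123), and 3 of the 4 ascending libraries lay at or below 0.627 CPM. Without ascending replicate 4, suprarenal replicate 3 and infrarenal replicate 1 together, GATA3 was called lower in the ascending aorta (-1.88, adjusted p = 0.023), also against the infrarenal aorta alone (-1.97, adjusted p = 0.0187).

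**Figure D2:**
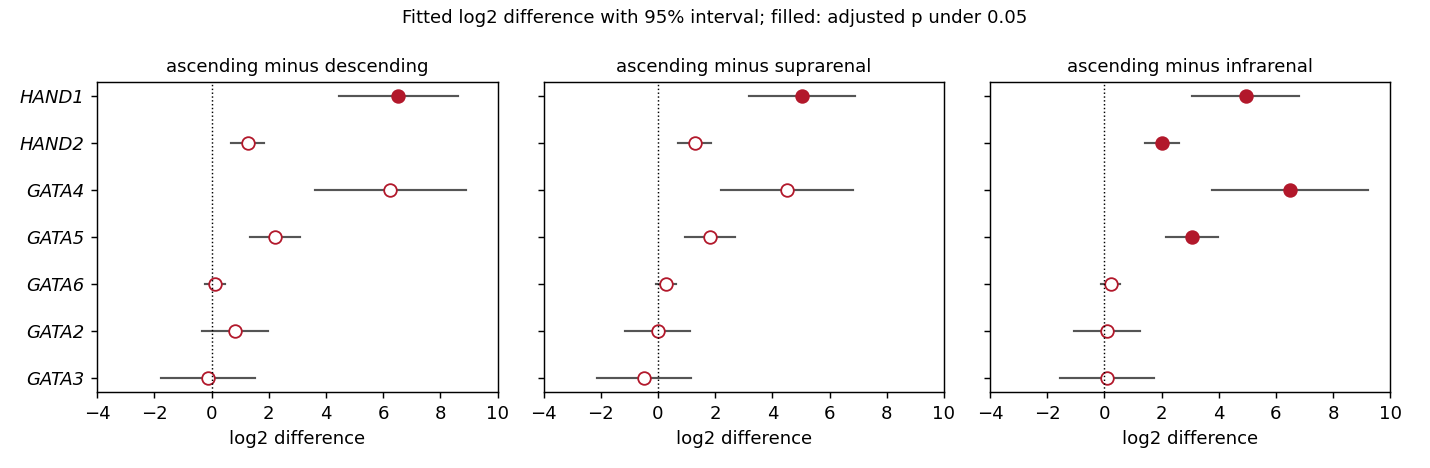
Fitted log2 differences (horizontal axes) of the 7 genes, ascending minus descending, suprarenal and infrarenal from left to right, with 95% intervals as lines. Filled points had an adjusted p under 0.05. HAND1 is filled in all 3 panels, HAND2, GATA4 and GATA5 only in the panel for the infrarenal aorta, and the intervals of GATA6, GATA2 and GATA3 cross 0 in each.

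The 3 comparisons of the ascending aorta with a single region share its 4 libraries, so they are not independent of each other. Against the infrarenal aorta 4 of the 7 genes rose, where 2.06% of all genes tested were higher in the ascending region. Against the descending aorta 1 of 7 rose, with 0.0251% of all genes higher, and against the suprarenal aorta 1 of 7, with 0.0879% higher. The DESeq2 fit called the same 4 genes, HAND1, HAND2, GATA4 and GATA5, in all 3 comparisons. None of the 7 genes was called between the descending and suprarenal regions, where edgeR and DESeq2 called 0 genes in all and 264 genes had an unadjusted p under 0.05 in edgeR. None was called by edgeR between descending and infrarenal (1.65% of all genes) or between suprarenal and infrarenal (0.201%), nor by DESeq2.

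Loci that lie next to or overlap the 7 genes in the RefSeq gene table of the assembly T2T-MFA8v1.1 were set beside them. The table was used for names and for which genes neighbour each other, since the build of the counts is not given. Of 33 such neighbours, 21 had a row and 12 were tested, of which 3 rose in the ascending aorta and 0 fell against the other 3 regions. DESeq2 called each of these 3 as well. HAND2 has an overlapping and a following locus among them, and the other overlaps GATA2. The 4 loci described next were chosen after their values were seen.

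LOC102134481, listed as protein-coding and overlapping HAND2, had 46.1, 65.4, 51.2 and 34.2 CPM in ascending, 7.64, 16.7, 16.5 and 13.4 in descending, 7.55, 10.7, 10.7 and 21.4 in suprarenal and 3.93, 6.80, 4.59 and 8.94 in infrarenal libraries. It rose by 2.28 on the log2 scale in the ascending aorta over the other 3 regions (SE 0.26, adjusted p = 0.000251), and was called in all 23 other settings. Its pattern over the 16 libraries was close to that of HAND2, with Pearson's r of 0.96 in log2 CPM and of 0.76 in deviations from the region means. LOC102133174, a lncRNA that follows HAND2, had 79 counts in the ascending, 6 in the descending, 24 in the suprarenal and 2 in the infrarenal region (log2 difference 3.46, SE 0.60, adjusted p = 0.00716), a call lost without ascending replicates 1 and 4 together (adjusted p = 0.161). Outside the ascending aorta only suprarenal replicate 3, at 0.698 CPM, lay above the filter cutoff of 0.608 CPM for LOC102133174. How reads in overlapping genes were assigned, and whether strand was used, is not given in the sources used here, and the table gives no strand, so reads of HAND2 and LOC102134481 may not be fully told apart.

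LOC102145907, a lncRNA that overlaps GATA2, rose in the ascending aorta. As the handling of overlapping genes and of strand is not given, reads of GATA2 and LOC102145907 may not be fully told apart either. Ascending libraries had 9.40, 12.2, 14.5 and 10.7 CPM, descending libraries 1.65, 2.17, 2.61 and 2.88, suprarenal libraries 0.804, 2.34, 7.11 and 1.18 and infrarenal libraries 1.16, 1.56, 4.78 and 2.38 CPM. Its ascending values lay above all 12 others (log2 difference 2.20, SE 0.41, adjusted p = 0.0126). The call was lost without ascending replicate 3 (adjusted p = 0.056) and without ascending replicates 1 and 4 together (adjusted p = 0.0741). Outside the ascending aorta, suprarenal replicate 3 and infrarenal replicate 3 were highest for LOC102145907, as they were for GATA2. Beside HAND1, the pseudogene LOC102132187 had 5, 5, 18 and 5 counts in ascending libraries and 0 in the other 12. Its ratio was 33.7 against a floor of 3 counts over the 12 libraries. The exact 95% interval of the ratio, which also carries the counting error of the ascending counts, starts at 25.9.

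**Figure D3:**
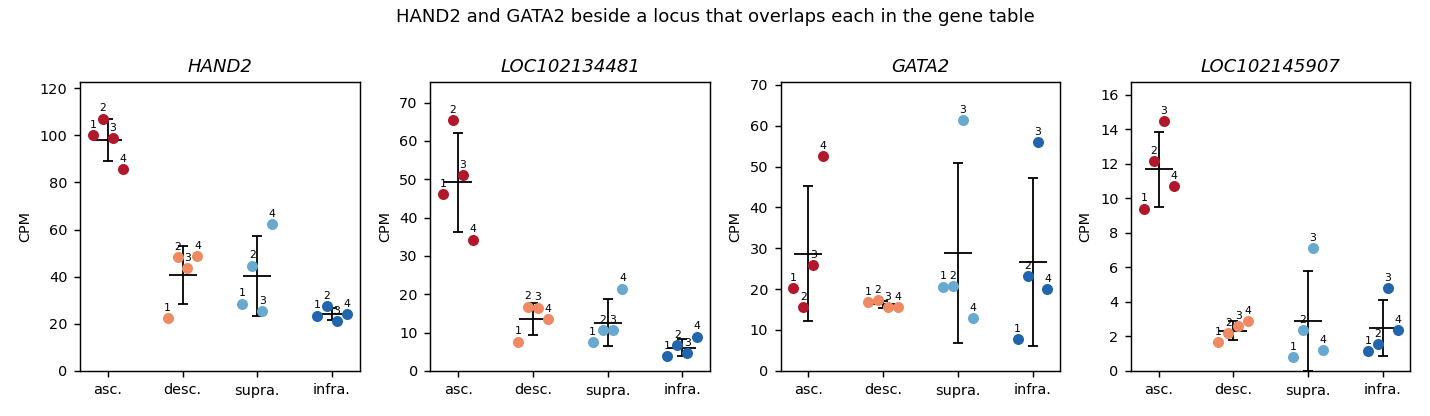
CPM (vertical axes, linear from 0) of HAND2, LOC102134481, GATA2 and LOC102145907 by region (horizontal axes). Points are libraries with their replicate numbers, and black marks are the mean and SD of 4 libraries. LOC102134481 and LOC102145907 have all ascending points above the rest, from 34.2 and 9.40 CPM upward, while GATA2 overlaps between regions.

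Pairs of the genes were also compared library by library. Over the 16 libraries Pearson's r of log2 CPM was 0.87 for GATA4 and GATA5, 0.79 for HAND2 and GATA5, 0.78 for HAND1 and GATA5 and 0.70 for HAND1 and HAND2. In deviations from the region means r was 0.58, -0.08, 0.38 and -0.13 for the same pairs. GATA3 and GATA4 had an r of 0.10 over the 16 libraries and of 0.87 in deviations, and GATA2 and GATA3 had 0.56 and 0.73. HAND2 and GATA6 had 0.63 and 0.74. These values are descriptions over 16 libraries that share region, depth and tissue composition. GATA4 had few counts outside the ascending aorta, which limits its r in deviations. Ascending replicate 4 and suprarenal replicate 3, with 256 and 11 GATA4 counts, were the highest of their regions for both GATA3 and GATA4.

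Genes with patterns like each member were ranked by r of log2 CPM over the 16 libraries, and the 3 highest among those ranked were taken. The ranking did not cover all genes. It left out LOC102134481, which had an r of 0.96 with HAND2, above the genes listed for HAND2 here. The genes below are therefore the closest only among those ranked. For HAND1 they were NLGN2 (0.87), MAB21L2 (0.87) and C19H19orf33 (0.82). For HAND2 they were HSPB7 (0.89), a small heat shock protein of heart and vessel, TRIM63 (0.88), a ubiquitin ligase of muscle, and NT5E (0.86), an ectonucleotidase. GATA5 was closest to PIANP (0.94), ULK1 (0.91) and the transcription factor TFAP2A (0.91), and GATA4 to SOX8 (0.89), GRB7 (0.88) and C19H19orf33 (0.88). For GATA6 the closest were SARAF (0.86), HSPB8 (0.83) and MAEA (0.82), for GATA2 CHKA (0.94), CD46 (0.94) and ADGRG6 (0.91), and for GATA3 RPS15A (0.91), KIF26A (0.88) and SOX7 (0.87). In deviations from the region means, r was 0.79 for NLGN2, 0.26 for MAB21L2 and 0.23 for C19H19orf33 with HAND1, and 0.77 for HSPB7, 0.53 for TRIM63 and 0.38 for NT5E with HAND2.

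HAND proteins pair with the E proteins TCF3, TCF4 and TCF12 and are opposed by ID proteins. Of 9 such partners tested, 0 were called against the other 3 regions by edgeR or DESeq2 and 1 had an unadjusted p under 0.05 in edgeR, with a median log2 difference of -0.18 beside -0.01 over all genes tested. TWIST1, a related helix-loop-helix factor, was at 26.1 ± 7.03 CPM in ascending and 49.4 ± 10.9, 44.8 ± 15.4 and 41.1 ± 16.4 CPM in descending, suprarenal and infrarenal libraries (SD, n = 4; log2 difference -0.79, adjusted p = 0.193). Of 6 GATA cofactors tested, 0 were called by edgeR or DESeq2 and 0 had an unadjusted p under 0.05 (median -0.09). ZFPM1, a FOG protein that binds GATA factors, gave -0.07 (adjusted p = 0.996), and LDB1, an adaptor of LIM complexes, 0.16 (adjusted p = 0.871). TRPS1, another member of the GATA zinc finger family, gave 0.09 (adjusted p = 0.986), and GATA1 was not tested because its counts were too low.

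Of 15 other heart field factors tested, edgeR called 2 higher and 1 lower in the ascending aorta against the other 3 regions (median 0.04), where 0.527% of all genes were lower. In edgeR 4 had an unadjusted p under 0.05, and DESeq2 called 4, ISL1, TBX1, TBX18 and TBX20. ISL1, a factor of the second heart field, was at 2.60 ± 0.92 CPM in ascending and 0.0567 ± 0.0784, 0.830 ± 1.01 and 0.311 ± 0.342 CPM in descending, suprarenal and infrarenal libraries (SD, n = 4; log2 difference 3.34, adjusted p = 0.0222). Its descending and infrarenal means lay below the filter cutoff of 0.608 CPM, so its call is read with these levels beside it. The ISL1 call was lost without ascending replicate 1, 2 or 3 (adjusted p up to 0.0948) and without ascending replicates 1 and 4 together (adjusted p = 0.128). TBX20, a T-box factor of heart muscle and valves, rose by 2.22 (adjusted p = 0.0106), a call lost without ascending replicate 3 (adjusted p = 0.0516) and without ascending replicates 1 and 4 (adjusted p = 0.106). TBX18, a factor of the epicardium, fell by 1.00 (adjusted p = 0.0358), a call that held in 9 of 23 other settings and was lost without any single ascending library (adjusted p from 0.0708 to 0.165). TBX2 gave -0.50 (adjusted p = 0.781).

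Among genes of BMP signalling, which lies upstream of HAND and GATA genes in the embryo, 0 of 18 tested were called by edgeR in the ascending aorta against the other 3 regions (median -0.10), where 4 had an unadjusted p under 0.05 and DESeq2 called 2, BMPR1B and GREM1. Against the infrarenal aorta 2 of 18 were called, the receptor BMPR1B higher (log2 difference 2.78, adjusted p = 0.0135) and the antagonist GREM1 lower in the ascending aorta (-4.73, adjusted p = 0.00513), where 1.43% of all genes were lower. Without infrarenal replicate 4, BMPR1B no longer passed (adjusted p = 0.0508). Of 9 reported targets of GATA and HAND factors tested, 1 rose against the other 3 regions (median 0.53), the atrial myosin MYH6. Its call (3.87, adjusted p = 0.0156) was lost without ascending replicate 1 (2.40, adjusted p = 0.242) and without ascending replicates 1 and 4 together (adjusted p = 0.184). Against the infrarenal aorta 2 of 9 rose, MYH6 and SEMA3C, a semaphorin of outflow tract patterning (1.64, adjusted p = 0.00915). In both comparisons 4 of the 9 targets had an unadjusted p under 0.05 in edgeR. DESeq2 called MYH6 alone against the other 3 regions, and MYH6, SEMA3C and PLXNA2 against the infrarenal aorta. The lists were picked with earlier results of these data known and are described by counts and medians only.

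Several markers of heart muscle were high in 1 ascending library. MYL2, the ventricular myosin light chain, was at 99.4 CPM in ascending replicate 1 and at 0.123, 0.605 and 0.483 CPM in ascending replicates 2 to 4. The troponin TNNI3 was at 74.9 CPM in ascending replicate 1 and at most 0.483 CPM in any other library, and MYBPC3 was at 25.1 CPM there. NPPA and MYL7, markers of atrial muscle, had 0 counts in all 4 ascending libraries. The 13 cardiac markers with a row summed to between 309 and 586 CPM in ascending, 196 and 532 in descending, 160 and 438 in suprarenal and 96.8 and 301 CPM in infrarenal libraries, and 2 of the 6 tested, MYL2 and MYH6, rose against the other 3 regions in edgeR (median of the 6, 1.78). DESeq2 called MYH6 and TNNT2 and gave no adjusted p for MYL2. The summed cardiac markers did not set ascending replicate 1 apart. Its sum was 586 CPM, beside 580 CPM in ascending replicate 2 and 532 CPM in descending replicate 2. Without ascending replicate 1 the log2 difference of MYL2 was -0.44 (adjusted p = 0.999). Ascending replicate 1 had the lowest HAND1 level of the 4 ascending libraries and the second highest HAND2 and GATA4 levels among them. Without it the log2 differences against the other 3 regions were 5.68 for HAND1, 1.51 for HAND2, 5.98 for GATA4 and 2.53 for GATA5, each still called.

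Mesothelial markers were set beside GATA4 and GATA5. The 7 markers with a row summed to between 78.9 and 212 CPM in ascending, 18.8 and 68.4 in descending, 16.2 and 27.6 in suprarenal and 8.31 and 17.6 CPM in infrarenal libraries, the highest in ascending replicate 4. There MSLN was at 40.7, UPK3B at 28.0, KRT18 at 14.8 and WT1 at 3.68 CPM. In the other 3 ascending libraries MSLN was at 0.501, 0.494 and 0.787 CPM and WT1 at 0.125, 0.0617 and 0 CPM, and their sums of 78.9, 81.8 and 108 CPM were mostly KRT8. In descending replicates 3 and 4, with sums of 68.4 and 56.0 CPM of which KRT8 made 49.6 and 50.5 CPM, GATA4 had 1 and 2 counts. Of 5 mesothelial markers tested, 1, the keratin KRT8, was called higher by edgeR against the other 3 regions (log2 difference 2.51, adjusted p = 0.000765), at 75.8, 79.1, 95.4 and 64.9 CPM in ascending libraries. In edgeR 4 of the 5 had an unadjusted p under 0.05. DESeq2 called KRT8 and gave no adjusted p for MSLN and UPK3B. Ascending replicate 4 had the highest GATA4, GATA5, GATA3 and GATA2 of its region and the lowest HAND2. Without it GATA5 still rose (2.11, adjusted p = 0.00345), as did HAND1 (5.51, adjusted p = 0.000384) and HAND2 (1.58, adjusted p = 0.00234). The part of mesothelial cells in the GATA4 and GATA5 levels was not tested.

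The 12 endothelial markers, set beside GATA2, summed to between 542 and 2179 CPM in ascending, 817 and 1122 in descending, 612 and 3705 in suprarenal and 1114 and 3055 CPM in infrarenal libraries. The 3 highest sums, 3705 CPM in suprarenal replicate 3, 3055 in infrarenal replicate 3 and 2179 in ascending replicate 4, were in the 3 libraries with the highest GATA2, at 61.4, 55.9 and 52.6 CPM in the same order. These libraries also had the highest white adipocyte sums of their regions, at 2637, 2993 and 576 CPM. Their smooth muscle sums, 15186, 25550 and 19606 CPM, were the lowest of their regions. Infrarenal replicate 1, with an endothelial sum of 1114 CPM, had the lowest GATA2 of all libraries, at 7.79 CPM. Of the 12 endothelial markers, 0 were called by edgeR or DESeq2 in the ascending aorta against the other 3 regions and 0 had an unadjusted p under 0.05 (median -0.49). The part of endothelial cells in the GATA2 level was not tested.

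**Figure D4:**
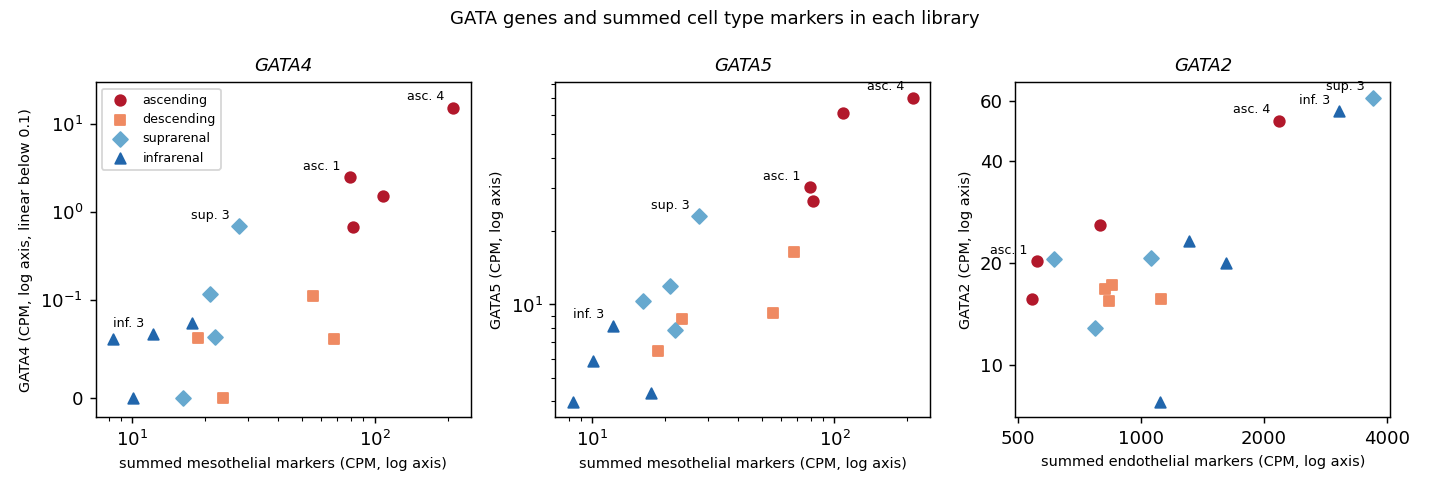
GATA4, GATA5 and GATA2 levels (vertical axes, CPM on log axes, that of GATA4 linear below 0.1) against summed mesothelial or endothelial markers (horizontal axes, CPM on log axes), with 1 point per library. Ascending replicate 4 is highest for mesothelial markers, GATA4 and GATA5, and GATA2 is highest in the 3 libraries with endothelial sums of 2179 to 3705 CPM.

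T cell markers, of interest for GATA3, were low, at 0.802 to 5.91 CPM summed over 9 markers in ascending, 1.89 to 3.6 in descending, 2.16 to 11.5 in suprarenal and 1.54 to 6.68 CPM in infrarenal libraries. The 2 libraries with the highest GATA3, ascending replicate 4 and suprarenal replicate 3, had T cell sums of 5.91 and 11.5 CPM, each the highest of its region. Both were also the highest of their regions for sympathetic neuron and chromaffin markers, at 2.53 and 9.64 CPM. The same held for their endothelial sums (2179 and 3705 CPM), fibroblast sums (3496 and 5208 CPM) and white adipocyte sums. Mast cell markers (6 with a row) summed to at most 37.8 CPM and sympathetic neuron and chromaffin markers (10) to at most 32.2 CPM, the second in infrarenal replicate 3. Of white adipocyte (7), fibroblast (6), Schwann cell (6), smooth muscle (10), T cell (4) and mast cell (4) markers tested, 0 were called by edgeR in the ascending aorta against the other 3 regions, with medians of -2.81, -0.43, 0.49, -0.065, -0.67 and -1.41. In the same order 4, 2, 2, 1, 0 and 3 had an unadjusted p under 0.05, and DESeq2 called 3 adipocyte markers (ADIPOQ, LIPE and PLIN1), 1 fibroblast marker (PI16) and 0 of the others. The 1 sympathetic marker tested was not called by either tool (0.45). White adipocyte sums ran from 133 to 576 CPM in ascending, 288 to 2845 in descending, 141 to 2637 in suprarenal and 147 to 2993 CPM in infrarenal libraries. Their part in the levels of the 7 genes was not tested.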

How the data were processed

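Whole-number counts per NCBI GeneID were deposited, 1 file per library, with a series table of the same values. Per the submitters' processing notes, fastp, HISAT2 (2.0.5) and featureCounts (1.5.0-p3) were used. Per the labels' protocols, a fibrous-tissue kit gave total RNA for NEBNext Ultra libraries. Not given in the sources used here were genome build, annotation, strand setting and how reads in overlapping genes were counted. Of 32846 rows, 24609 (74.9%, with 97.2% of counts) matched a symbol by GeneID.

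Genes were kept with filterByExpr (minimum count 10, minimum total 15), which left 15926. Differences were tested in edgeR 4.0.16 (R 4.3.3) by quasi-likelihood after TMM scaling, with a mean for each region over all 16 libraries and Benjamini-Hochberg adjustment over all genes tested. Log2 CPM for r used a prior count of 2. Standard errors are the log2 difference over the root of F. Intervals on summed counts are exact, cover counting error only, and use no floor. A floor of 3 counts stood in for the 0 counts of LOC102132187 outside the ascending aorta in its ratio. Alternatives were a replicate block, RLE factors, library totals, no filter beyond 1 count, DESeq2 1.42.0, each library left out, and 2 sets of libraries left out, 1 of them chosen after seeing the data. The code was tested on simulated data.

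All 7 members are given in each comparison. From each list, up to 4 genes with the smallest p for any difference could be named. MYBPC3, TNNI3, MYL7, NPPA, WT1, KRT18, UPK3B and the neighbouring loci were named with their values seen. Members and lists were chosen with earlier results of these data known. No 2 libraries repeated each other.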

Additional observations from a re-analysis of the deposited data

Results flagged for a closer look

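Within the 28 groups of 4 libraries that the 7 genes make, 5 had a library far from the other 3. For independent and normally spread values chance gives about 1 in 20. These groups share libraries and some hold very low counts, so that rate is a guide only. GATA4 was at 15.5 CPM in ascending replicate 4 and at 0.698 CPM in suprarenal replicate 3. GATA3 was at 4.83 CPM in ascending replicate 4. GATA2 was at 61.4 CPM in suprarenal replicate 3. HAND1 was at 0.425 CPM, 7 counts, in descending replicate 3. Ascending replicate 4 and suprarenal replicate 3 account for 4 of these 5 values, and their mesothelial marker sums were 212 and 27.6 CPM. The other suprarenal libraries had sums of 16.2 to 22.0 CPM. Descending replicates 3 and 4 had sums of 68.4 and 56.0 CPM, mostly KRT8, and 1 and 2 GATA4 counts. Ascending replicate 4 and suprarenal replicate 3 had endothelial marker sums of 2179 and 3705 CPM, the highest of their regions. The part of these cell types in the values was not tested.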

How the results depend on the processing

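The calls of HAND1, HAND2 and GATA5 for any difference, against the other 3 regions and against the infrarenal aorta held in all 23 other settings, and those of GATA4 in 22, lost without ascending replicates 1 and 4 together, a choice made after seeing the data. Counts of genes called moved more. With the replicate number as a block they were 532 for any difference, 409 for ascending against the other 3 regions, 62, 76 and 843 for ascending against descending, suprarenal and infrarenal, 432 for descending against infrarenal and 84 for suprarenal against infrarenal. DESeq2 gave 828, 565, 176, 182, 988, 624 and 157 in that order, and leaving out ascending replicate 4, suprarenal replicate 3 and infrarenal replicate 1 gave 1128, 1048, 141, 113, 2099, 653 and 241. Without ascending replicates 1 and 4 the 4 ascending counts were 80, 6, 15 and 332. Suprarenal against infrarenal gave 52 with library totals and 51 with no filter. With 1 library left out, the counts ran from 213 to 477, 109 to 640, 7 to 34, 19 to 66, 345 to 1001, 132 to 326 and 3 to 52, in the order of the block counts. The highest counts for any difference and against the other 3 regions came without infrarenal replicate 1. Descending against suprarenal gave 0 in every setting.

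Of the 7 genes, ascending against descending called 4 (HAND1, HAND2, GATA4 and GATA5) with the block, DESeq2 or the 3 libraries left out, 2 with no filter, 0 without ascending replicates 1 and 4, and 0 to 3 with 1 library left out. Ascending against suprarenal called 3 (HAND1, HAND2 and GATA5) with the block, 4 with DESeq2, 3 with the 3 libraries left out, 0 without ascending replicates 1 and 4, and 0 to 2 with 1 library left out. Suprarenal against infrarenal called 1 with the block, GATA5 (adjusted p = 0.0301). Whether same-numbered libraries share an animal is not given. Of 24 same-numbered pairs, 19 had deviations correlated above 0.1 (median r 0.337, lowest -0.271), and 15 of 16 libraries correlated best with their own number, a hint from the data and not from the design.

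Among the differences of the 7 genes and of MYL2, those that turned direction were not called over all libraries, apart from MYL2 (-0.58 without ascending replicates 1 and 4, and -0.44 to 5.91 with 1 library left out). Without the 3 libraries GATA2 gave -0.67, 0.19 and -0.047 for ascending against infrarenal, suprarenal and the other 3 regions and -0.86 for suprarenal against infrarenal. GATA3 then gave -1.97 for ascending against infrarenal, which was called there (adjusted p = 0.0187), -0.041 for descending against infrarenal, 0.21 for descending against suprarenal and -0.25 for suprarenal against infrarenal. Descending against suprarenal became 0.044 for GATA4, 0.013 for GATA5 and -0.16 for HAND2, and suprarenal against infrarenal 0.075 for GATA6 (0.014 with library totals) and 0.17 for HAND1. Without ascending replicates 1 and 4 GATA2 gave -0.36 against infrarenal and -0.16 against the other 3 regions, and GATA3 -2.07 against infrarenal. The block gave 0.14 for GATA2 in ascending against suprarenal and -0.35 for GATA3 in ascending against infrarenal.

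With 1 library left out, GATA2 ran from -0.37 to 0.75 for ascending against infrarenal, -0.48 to 0.67 against suprarenal, -0.17 to 0.53 against the other 3 regions, and -0.57 to 0.76 for suprarenal against infrarenal. GATA3 ran from -1.94 to 0.24, -2.31 to 0.098, -1.71 to 0.46 and -1.99 to 0.19 for ascending against descending, suprarenal, infrarenal and the other 3 regions, from -0.040 to 0.43 for descending against infrarenal and from -0.67 to 0.21 for descending against suprarenal. GATA4 ran from -0.23 to 0.61 for descending against infrarenal and from -2.19 to 0.046 for descending against suprarenal, where GATA5 ran from -0.70 to 0.021 and HAND2 from -0.15 to 0.31. For suprarenal against infrarenal GATA6 ran from -0.16 to 0.033 and HAND1 from -0.98 to 0.32. The causes were not tested. HAND1 and GATA4 had few counts outside the ascending aorta, which limits their comparison among the lower regions.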
